A study of Ovis aries with 8 samples.

Results

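Antigen receptor chains are the proteins with which B and T lymphocytes recognise foreign molecules. On the sheep array used here, 113 of 15008 probes were described as immunoglobulin or T-cell receptor chains, and these are the probes examined. They were chosen by the words of the array's own descriptions: immunoglobulin together with a named heavy, light, lambda, kappa, mu, gamma, alpha or epsilon chain, or T-cell receptor together with alpha, beta, gamma or delta. The polymeric immunoglobulin receptor, Fc receptors and the CD3 and CD247 subunits were not counted. Of the 113 probes, 70 were described as immunoglobulin and 43 as T-cell receptor.

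The samples were the lungs of 8 sheep fetuses from 4 sets of twins at about 130 days of gestation, where term is 147 days. In each set, 1 fetus was given 0.2 mg of aldosterone, a steroid of the adrenal cortex that retains sodium, over 48 h, and its twin received vehicle; infusions began 5 days after surgery. This gave 4 aldosterone lungs and 4 control lungs, each on its own 1-colour array. The labels give no strain, sex or genotype, and lung is the only tissue named. The comparison asks what aldosterone changes in the late-gestation lung.

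An immunoglobulin is built of heavy and light chains, and a T-cell receptor of an alpha and a beta chain or of a gamma and a delta chain. Each chain has a constant region, which many lymphocytes share and which in the heavy chain differs by class. Each chain also has a variable region that each lymphocyte assembles for itself by joining V and J segments. In the heavy, beta and delta chains a D segment lies between them. The join differs from cell to cell, so a probe laid across it matches the transcript of few cells, whereas a probe in a constant region matches many. Sheep are known for a large population of gamma delta T cells, and the sheep fetus, shielded by its placenta from maternal antibody, makes IgM first among its own antibodies. In whole lung RNA, fewer lymphocytes and less RNA per lymphocyte cannot be told apart.

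The members fell into 8 kinds of chain and 1 probe of another kind. The immunoglobulins were 48 heavy-chain variable probes, 16 light-chain variable probes, 5 probes for heavy-chain classes (mu with 2 probes, gamma1, alpha and delta) and 1 probe for a lambda constant segment that its source entry calls nonfunctional. The T-cell receptors were 1 alpha, 15 beta, 6 gamma and 20 delta probes. The remaining probe met the wording through a source entry called a T-cell receptor CD1b alpha chain; CD1b presents lipid antigens to T cells and is no receptor chain, and this probe was not well above background on any array. The 113 probes stood for 110 sequence entries, since mu, heavy variable clone 14 and beta chain OTCR23 had 2 probes each. Every member had 1 spot per array. The array's annotation lists the genome position of all 113 as unmapped, so only the start within the source entry is known, from base 52 to base 1840.

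Many of these probes were described as cloned or rearranged receptor chains, and 53 of the 113 held letters of the end of a V region or of a J segment that were searched for. The probes are 60 bases long and read in the sense of the mRNA. The first set shows heavy-chain variable probes that run into the J segment, with the letters GACTACTGG in capitals.

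clone VR5: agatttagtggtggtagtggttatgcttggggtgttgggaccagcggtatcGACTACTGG

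clone VR15: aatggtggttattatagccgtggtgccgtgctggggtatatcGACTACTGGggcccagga

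clone VR12: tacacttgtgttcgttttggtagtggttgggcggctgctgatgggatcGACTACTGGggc

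Directly upstream of the capitals the 3 clones share the letters atc, and further upstream their letters differ. Where V, D and J letters meet in these probes was not determined. GACTACTGG stood in 15 of the 113 members, all of them heavy-chain variable probes, and in 0.153% of all 15008 probes. The second set shows heavy-chain probes that reach further into J, with GGACTCCTG in capitals, and light-chain probes with GACCAGGCT in capitals.

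clone 106105: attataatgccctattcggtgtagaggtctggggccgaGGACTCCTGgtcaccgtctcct

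clone VRA1: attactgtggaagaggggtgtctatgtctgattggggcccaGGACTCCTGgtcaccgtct

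heavy-chain clone 1: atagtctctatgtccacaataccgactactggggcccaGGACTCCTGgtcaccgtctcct

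light-chain clone 70: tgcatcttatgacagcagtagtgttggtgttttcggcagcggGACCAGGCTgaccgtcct

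light-chain clone 96: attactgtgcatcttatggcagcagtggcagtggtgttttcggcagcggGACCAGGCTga

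GGACTCCTG was found in 6 members and in 0.08% of all probes, and 3 members held both it and GACTACTGG. GACCAGGCT was found in 5 members, all light-chain variable probes, and in 0.0666% of all probes. The third set shows the codons for tyrosine, then tyrosine or phenylalanine, then cysteine (TAC or TAT, then TAC, TAT, TTC or TTT, then TGC or TGT) in capitals. The cysteine of that run lies near the end of the V region, so letters after it lead into the joint. In heavy-chain clone 23 and light-chain clone 22 they run on into the J letters GACTACTGG and GACCAGGCT.

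beta chain OTCR9: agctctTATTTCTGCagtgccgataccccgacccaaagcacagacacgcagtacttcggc

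delta chain A_70_P016437: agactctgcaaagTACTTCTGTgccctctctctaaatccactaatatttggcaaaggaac

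delta chain A_70_P056821: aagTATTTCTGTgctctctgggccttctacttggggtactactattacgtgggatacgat

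delta chain A_70_P016941: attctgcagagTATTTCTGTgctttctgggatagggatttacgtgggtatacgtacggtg

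heavy-chain clone 23: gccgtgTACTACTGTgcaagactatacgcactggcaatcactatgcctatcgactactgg

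light-chain clone 22: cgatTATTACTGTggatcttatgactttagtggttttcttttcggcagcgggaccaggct

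These codons stood in 35 of 113 members and in 0.953% of all probes; 3 of the 35 also held GACTACTGG. All motifs were searched on the printed strand only, and a match is a description of the letters. Not every variable probe is private to its clone, because many lie in V or J letters that clones share. Of 6328 pairs of members, 61 shared an unbroken run of 20 bases or more, and 43 probes took part in such pairs. The longest run, 47 bases, joined the 2 probes of clone 14. The next, 40 bases, joined a pair of delta chain probes from different entries, shown here with that run in capitals because their values are compared further on.

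delta chain A_70_P056836: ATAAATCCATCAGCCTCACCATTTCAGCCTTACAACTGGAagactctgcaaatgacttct

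delta chain A_70_P056806: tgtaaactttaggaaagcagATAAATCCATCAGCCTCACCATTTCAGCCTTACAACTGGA

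The constant region is represented by the mu probe A_70_P024391, which starts at base 866 of its entry and lies within the coding part of the heavy chain.

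mu chain A_70_P024391: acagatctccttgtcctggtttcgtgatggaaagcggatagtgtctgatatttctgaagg

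A spot counts as well above background when the scanner software finds its signal clearly over the local background. Between 76.7% and 85.6% of the 15008 probes reached this in a lung, whereas 16.8% to 31.9% of the members did. Of the members, 57 were not well above background in any lung (50.4%, against 11.1% of all probes), 25 were so in exactly 1 lung (22.1% against 4.29%), 7 in 2 or 3 lungs, 24 in at least 4 lungs and 15 in all 8 (13.3% against 74.5%). Members were thus mostly near background in fetal lung, and more often than other probes seen in a single animal. The probe for epithelial surfactant protein C, a defining product of the labelled tissue, was well above background in all 8 lungs.

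**Figure D1:**
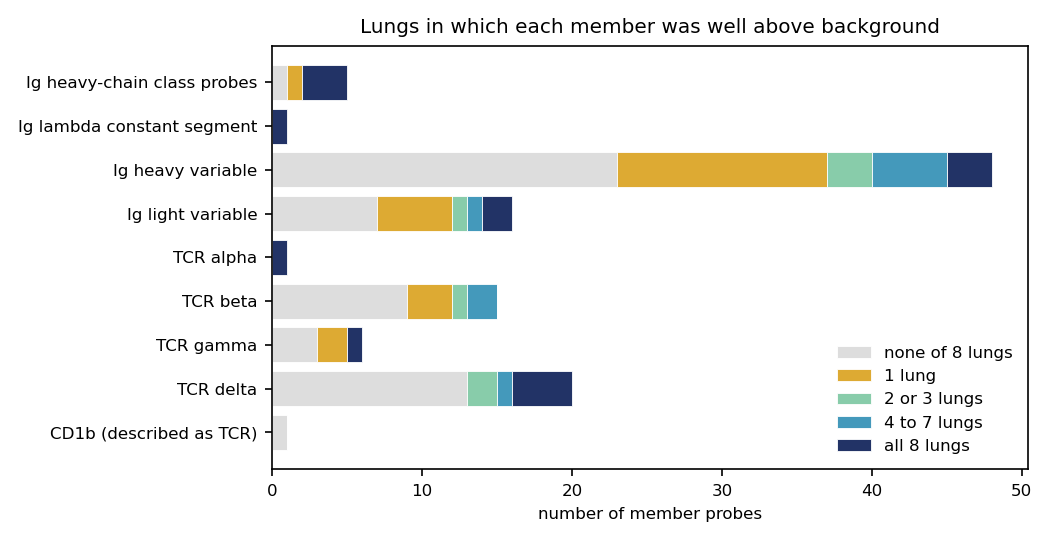
Number of member probes (horizontal axis) of each kind of chain, coloured by the number of lungs, of 8, in which the probe was well above background. Grey and yellow, none and 1 lung, make up most of the variable and rearranged chains, while the lambda constant segment and T-cell receptor alpha probes were above background in all 8 lungs.

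By the names of their source entries, the members split as follows. Of the 7 probes for heavy-chain classes, the lambda constant segment and the alpha chain, 5 were well above background in all 8 lungs. Of the 105 variable-region, beta, gamma and delta probes, 10 were (9.52%), 24 were seen in exactly 1 lung and 55 in none. The split is by chain name and does not show where each probe lies: the gamma probes A_70_P006881 and A_70_P016906 start at bases 833 and 836 of their entries, and the first was seen in all 8 lungs and the second in none. Among the 35 probes with the cysteine codons, 3 were seen in all 8 lungs and 12 in 1 lung; among the 70 variable or rearranged probes without them, 7 and 12 were. Among the heavy-chain variable probes, 4 of 15 with GACTACTGG and 4 of 33 without it were well above background in at least 4 lungs. The 6 probes with GGACTCCTG included 3 seen in at least 4 lungs, and the 5 with GACCAGGCT included 2.

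By chain, 23 of 48 heavy variable, 7 of 16 light variable, 9 of 15 beta, 13 of 20 delta and 3 of 6 gamma probes were not well above background in any lung. None of the 20 delta probes was seen in exactly 1 lung, against 14 of 48 heavy variable and 5 of 16 light variable probes. The 4 delta probes seen in all 8 lungs were A_70_P016437, A_70_P056836, A_70_P016961 and A_70_P056821. The beta chain had no probe in all 8 lungs; OTCR23 was seen in 7 lungs with 1 of its probes and in none with the other, and OTCR9 in 6.

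Control and aldosterone lungs overlapped in the number of members seen. The controls had 28, 26, 24 and 33 members well above background (27.8 ± 3.86, SD, n = 4), and the aldosterone lungs had 23, 36, 27 and 19 (26.2 ± 7.27, SD, n = 4), in order of replicate number. Both the highest and the lowest count came from aldosterone lungs. In each group 43 members were seen in at least 1 lung. Immunoglobulin probes made most of the spread, from 11 to 25 of 70 per lung, while T-cell receptor probes ranged from 8 to 12 of 43. The array of aldosterone replicate 4, which had the lowest count, also had the smallest share of all probes well above background, and the array of control replicate 4 had the largest share; their part in the member counts was not tested.

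**Figure D2:**
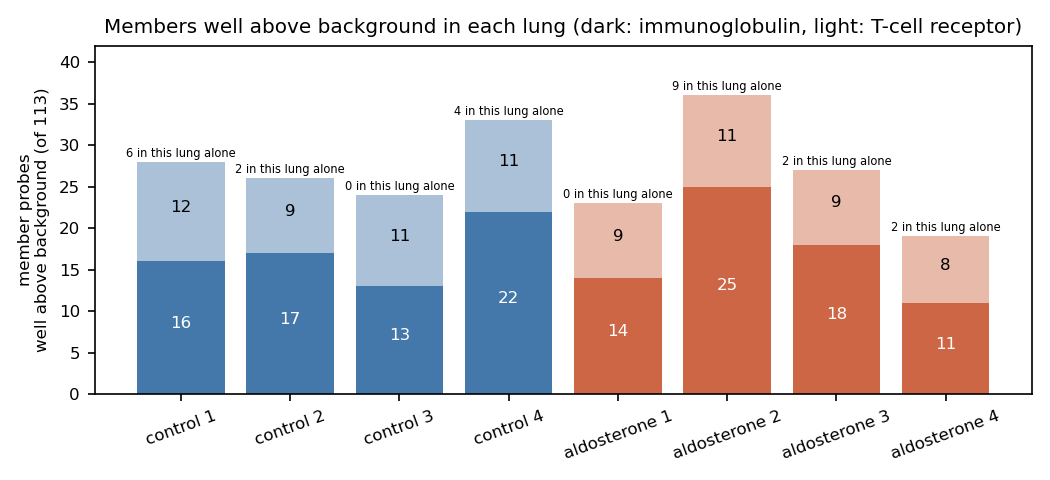
Members well above background in each lung (vertical axis, of 113), split into immunoglobulin (dark, lower) and T-cell receptor probes (light, upper), with the number seen in that lung alone written above each bar. Aldosterone replicate 2 reached 36 members, 9 of them in no other lung, and aldosterone replicate 4 reached 19.

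Among the immunoglobulin constant regions, mu, the heavy chain of IgM, was measured in every lung by both of its probes. Levels are log2 intensities relative to the 75th percentile of the same array, so 0 marks a signal at that percentile and each unit a doubling; they are compared between lungs, not between probes. The coding probe A_70_P024391 read -2.49, -2.55, -2.97 and -3.11 in control replicates 1 to 4, and -3.0, -1.33, -2.81 and -1.64 in aldosterone replicates 1 to 4. Aldosterone replicates 2 and 4 lay above all controls, and the other two aldosterone lungs lay within the range of the controls. The mean difference was 0.58 ± 0.38 (limma standard error, 4 lungs a group), with an adjusted p = 1.0. The second mu probe, A_70_P002936, starts at base 1840, and its 60 bases hold the polyadenylation letters AATAAA. It read 0.26, 0.10, -0.42 and -0.87 in the controls and -0.32, 2.55, -0.84 and -0.04 in the aldosterone lungs. Its mean difference of 0.57 ± 0.67 (adjusted p = 1.0) came from aldosterone replicate 2 alone: without that lung it was -0.17.

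The gamma1 chain, the heavy chain of an IgG class, was also above background in every lung. Its probe A_70_P008161 read -4.36, -3.94, -3.79 and -3.62 in the controls and -4.55, -3.71, -3.60 and -3.41 in the aldosterone lungs, so the groups overlapped over nearly their whole range. The difference was 0.11 ± 0.27 (adjusted p = 1.0). The alpha chain of IgA, the class secreted at mucosal surfaces, was well above background in control replicate 4 only, and the delta chain of IgD, found on resting B cells, in no lung. The lambda constant segment, A_70_P031246, read 1.15, 1.24, 0.89 and 1.1 in the controls and 0.78, 1.1, 1.62 and 1.26 in the aldosterone lungs. Its difference was 0.10 ± 0.19 (adjusted p = 1.0), and both the highest and the lowest lung were in the aldosterone group.

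Of the heavy-chain variable probes, VR5 (A_70_P041141) had the smallest unadjusted p of all members. It read -6.14, -6.85, -6.14 and -6.20 in the controls and -4.51, -4.54, -5.59 and -5.67 in the aldosterone lungs. All 4 aldosterone lungs lay above all controls, and within the aldosterone group replicates 1 and 2 stood more than 1 unit above replicates 3 and 4. The probe was not well above background in control replicate 2 and aldosterone replicate 4. The difference was 1.25 ± 0.32, with an unadjusted p = 0.00343 and an adjusted p = 1.0 over the 12168 probes tested, so it did not pass the threshold of 0.05. Within the slide row that holds replicates 1 and 2 it was 1.97, and within the row of replicates 3 and 4 it was 0.54. After another background correction and normalization (normexp with an offset of 50, then quantile) it was 0.21.

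Clone 106105 (A_70_P041206) was among the heavy-chain probes that hold the J letters GGACTCCTG. It read -6.14, -5.58, -6.00 and -5.96 in the controls and -6.12, -4.79, -5.38 and -4.96 in the aldosterone lungs. Aldosterone replicate 1 lay at the level of the lowest control and the other 3 above all controls. The difference was 0.61 ± 0.28, with an unadjusted p = 0.06 and an adjusted p = 1.0; within the rows it was 0.41 and 0.81, and after normexp and quantile normalization 0.10. VR15 (A_70_P056787), a heavy variable probe among the 5 brightest immunoglobulin members, read -3.57, -3.37, -2.88 and -3.56 in the controls and -3.39, -3.60, -3.15 and -3.06 in the aldosterone lungs. Its difference of 0.04 ± 0.20 (adjusted p = 1.0) is small beside its spread within groups. The 5 other heavy variable probes that could be tested had differences between -0.20 and 0.13.

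The 3 light-chain variable probes that could be tested were clones 139, 96 and 70, and all had a higher mean after aldosterone, by 0.41 ± 0.36, 0.45 ± 0.54 and 0.18 ± 0.60 (adjusted p = 1.0 for each). In each, single lungs stood well above the rest. Clone 139 was -3.92 in aldosterone replicate 4 and between -5.73 and -5.30 in the other 7 lungs. Clone 96 was -4.33 and clone 70 was -3.99 in aldosterone replicate 2, their highest lung, while aldosterone replicate 3 read -6.69 and -6.83. Clones 70 and 96 share a run of 29 bases, so they are not independent of each other.

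The alpha chain of the T-cell receptor, A_70_P016851, was above background in every lung. It read 2.07, 1.66, 1.89 and 0.60 in the controls and 1.45, 2.00, 1.24 and 2.36 in the aldosterone lungs. Control replicate 4 was the lowest lung and its aldosterone-infused counterpart of the same number the highest. Aldosterone replicate 4 was also the highest lung for 21.1% of all probes tested. The difference of the alpha chain was 0.21 ± 0.36 (adjusted p = 1.0); without control replicate 4 it was -0.11. For the beta chain, which pairs with alpha, OTCR9 (A_70_P041401) spanned -6.73 to -4.61 in the controls and -6.85 to -4.53 in the aldosterone lungs. Replicate 4 held the highest value and replicate 2 the lowest in both groups, and the difference was -0.17 ± 0.57 (adjusted p = 1.0).

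The gamma chain probe A_70_P006881 read -4.0, -3.91, -3.87 and -3.41 in the controls and -4.0, -4.10, -3.66 and -3.63 in the aldosterone lungs, a difference of -0.05 ± 0.18 (adjusted p = 1.0). The delta chain, its partner, was measured by several probes. A_70_P016437 read -4.26, -4.30, -4.16 and -3.95 in the controls and -4.62, -4.28, -4.13 and -4.04 in the aldosterone lungs (difference -0.10 ± 0.16, adjusted p = 1.0). A_70_P056821 read -4.86, -4.30, -4.86 and -4.48 in the controls and -5.31, -4.25, -4.72 and -3.85 in the aldosterone lungs (difference 0.09 ± 0.30, adjusted p = 1.0). In these 3 probes the groups overlapped.

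The pair of delta probes that share 40 bases differed in whether the groups overlapped, but were not tested against each other. A_70_P056836 read -5.04, -4.51, -5.94 and -6.05 in the controls and -4.90, -4.97, -6.10 and -5.47 in the aldosterone lungs, a difference of 0.03 ± 0.39 (adjusted p = 1.0). A_70_P056806 read -6.02, -5.74, -6.30 and -6.45 in the controls and -6.48, -6.51, -6.72 and -6.55 in the aldosterone lungs. All 4 aldosterone lungs lay below all controls, and the difference was -0.44 ± 0.17, with an unadjusted p = 0.0341 and an adjusted p = 1.0. The second probe was well above background in all 4 controls and in aldosterone replicates 1 and 2. After normexp and quantile normalization its difference was -0.06, and that of A_70_P056836 was -0.02.

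**Figure D3:**
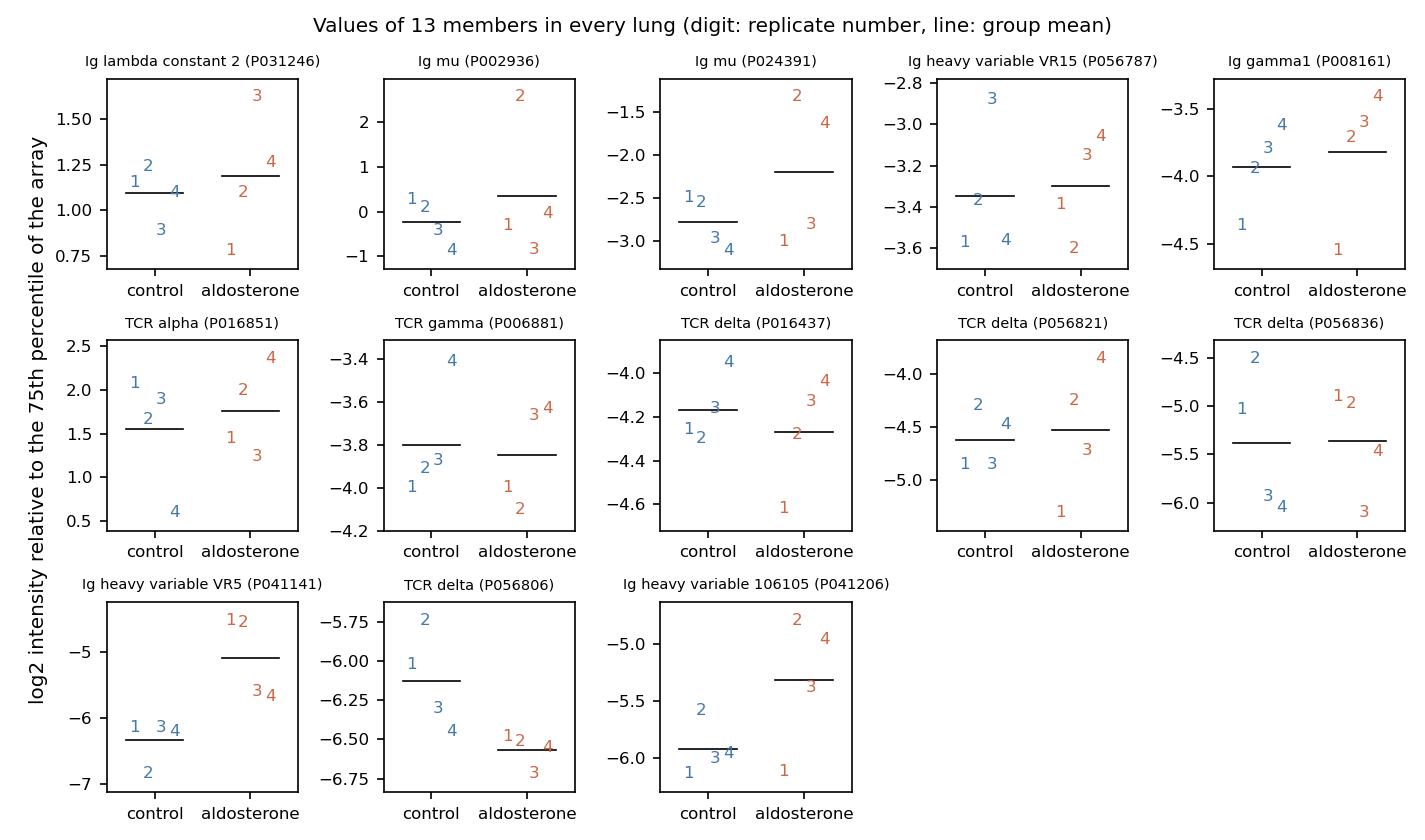
Level of 13 members in every lung, as log2 intensity relative to the array's 75th percentile (vertical axis, a separate scale in each panel), with digits for replicate numbers, blue for control, orange for aldosterone and a line at each group mean. The groups do not overlap for VR5, higher after aldosterone, and for delta chain A_70_P056806, lower after aldosterone; in the other 11 panels they overlap.

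Over the 24 members that could be tested (15 immunoglobulin and 9 T-cell receptor, each well above background in at least 4 lungs), none passed an adjusted p of 0.05 in limma, and none of the 12168 probes tested did, a share of 0%. At an unadjusted p under 0.05, 2 of the 24 members stood against 228 of all probes tested (1.87%). VR5 was the member with groups that did not overlap and aldosterone above, which held for 0.855% of all probes, and delta chain A_70_P056806 the one with aldosterone below, which held for 0.452%. With the replicate number as a block, which compares each aldosterone lung with its twin, unadjusted p fell under 0.05 for 3 of the 24 members (VR5, A_70_P056806 and 106105) and for 539 of all probes (4.43%), and no member or other probe passed after adjustment (lowest adjusted p = 0.878). VR5 and 106105 were higher in the aldosterone twin in 4 of 4 pairs, and A_70_P056806 in 0 of 4. For 106105 the difference in the pair numbered 1 was only 0.02. These 3 probes were named for their small p, so the agreement of their pairs is no separate result. The share of all probes with such agreement is not given.

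The means were higher after aldosterone in 16 of the 24 members and in 51.5% of all probes tested, and the median difference was 0.09 beside 0.01 for all probes. Immunoglobulin members were higher in 12 of 15, with a median of 0.13, and T-cell receptor members in 4 of 9, with a median of -0.05. The count depended on the slide row: 10 of 24 were higher within the row of replicates 1 and 2 (47.1% of all probes) and 19 of 24 within the row of replicates 3 and 4 (53.4%). The median standard error was 0.31 for the members and 0.201 for all probes, so differences of members were measured less precisely.

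**Figure D4:**
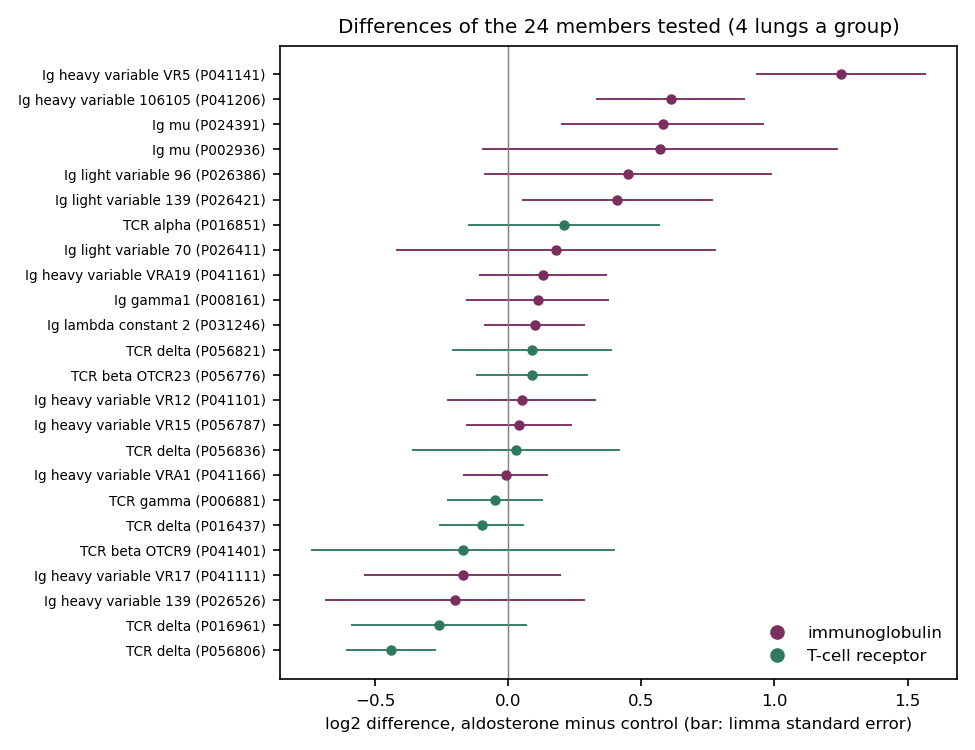
Log2 difference, aldosterone minus control, of the 24 members tested (horizontal axis), with bars for limma's standard error over 4 lungs a group; purple marks immunoglobulin and green T-cell receptor probes. The differences run from -0.44 to 1.25, and none passed the threshold after adjustment.

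Beyond group means, several variable-region probes stood out in a single lung. Each such reading is 1 spot on 1 array and was not repeated. Of the 25 members seen in exactly 1 lung, 9 belonged to aldosterone replicate 2, 6 to control replicate 1, 4 to control replicate 4, 2 each to control replicate 2 and aldosterone replicates 3 and 4, and none to control replicate 3 or aldosterone replicate 1. By group they were 12 in controls and 13 in aldosterone lungs. Of all 15008 probes, 644 were seen in exactly 1 lung, 307 of them in control replicate 4 and 83 in aldosterone replicate 2.

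The gap between that lung and the next was wide for some clones. Light-chain clone 22 read -3.95 in aldosterone replicate 4 and -8.64 or lower elsewhere. Heavy-chain clone VR6 read -3.48 in control replicate 2 and -7.78 or lower elsewhere. Heavy-chain clone 23 read -4.55 and beta chain OTCR15 -4.53 in control replicate 1, against at most -8.01 and -7.99 in the others. For VR6, clone 23 and OTCR15 the next highest lung was aldosterone replicate 4, whose array has a higher floor. The order of the gaps by size therefore carries no meaning. Each of these 4 clones was well above background in 1 lung, and together they came from 3 lungs, control replicates 1 and 2 and aldosterone replicate 4.

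The gamma chain probe A_70_P016991 read -4.13 in aldosterone replicate 4 and at most -6.82 elsewhere. Some clones were seen in more than 1 animal without being general: heavy-chain clone 53 read -3.43 in control replicate 2 and at most -6.50 elsewhere, and OTCR6 read -3.70 in aldosterone replicate 2 and at most -6.01 elsewhere. The delta chain A_70_P016941 had 2 levels, with -4.94 in control replicate 3, -4.81 in control replicate 4 and -4.99 in aldosterone replicate 3, against -7.83 or lower in the other lungs. These members, chosen after their values were seen, make no comparison between treatments.

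Aldosterone replicate 2 was the lung with the most high immunoglobulin values. Of the 15 immunoglobulin members tested, 6 were highest there, as were 12.5% of all probes tested. The 6 are not independent of each other: they include both mu probes, from the same sequence entry. They also include light-chain clones 70 and 96, which share 29 bases. This lung was singled out after its values were seen. Of the 9 members seen in that lung alone, 8 were immunoglobulin variable probes, among them light-chain clone 58 at -4.91 (at most -7.19 elsewhere) and light-chain clone 34 at -4.81 (at most -7.03 elsewhere). Some marker genes of other cells were also highest in this lung, and others were not. The summed level of the macrophage markers LYZ and CD14 was 1.83 in this lung and 0.454 to 0.590 in the other 7, in multiples of the array's 75th percentile. LYZ made this difference, at 0.52 against at most -1.34 in the other lungs. The brighter CD14 probe read -1.36 in this lung and was highest in aldosterone replicate 4, at -1.32. The other CD14 probe was highest in this lung, at -1.49, with -1.64 in aldosterone replicate 4. Of the 6 Fc receptor and antibody transport genes measured, 3 were highest in this lung: FCGR2B read -1.84 against at most -3.35 in the others, PIGR, which carries antibody across epithelium, -2.93 against at most -4.91, and FCER1G 1.48 against at most 0.75. FCGRT was highest in aldosterone replicate 4 and FCGR1A in control replicate 4, and FCER1A, at -3.03, was the second lowest of the 8 lungs there. Their part in the high immunoglobulin values was not tested.

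**Figure D5:**
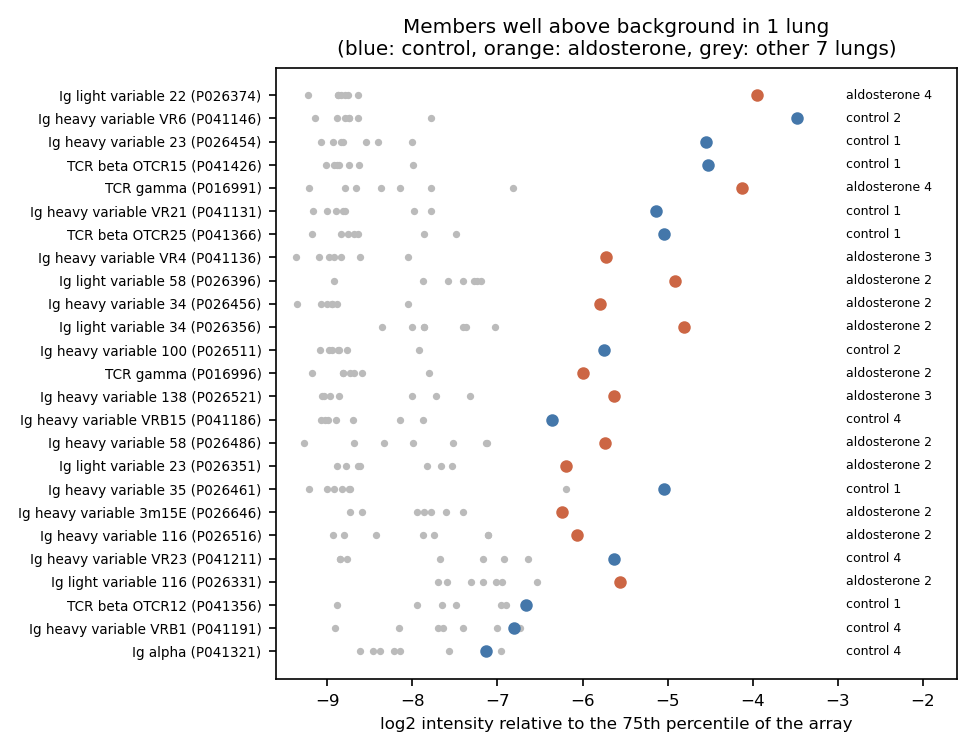
The 25 members well above background in exactly 1 lung: the level in that lung (coloured point, named at the right) and in the other lungs (grey), as log2 intensity relative to the array's 75th percentile. The largest gap is 4.70, for light-chain clone 22, and the bottom 2 rows show probes whose grey points reach the coloured one. Gaps depend in part on the floor of each array, which is higher for aldosterone replicate 4.

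Lists of other lymphocyte genes were few on this array. Of 15 genes of the T-cell receptor complex and of T cells, 8 had a named probe and 6 were measured; after aldosterone the mean was higher for 3 and lower for 3 (median -0.03), and none passed. CD3E, a signalling subunit of the receptor, lay between -1.58 and -0.06 in the controls and between -1.15 and -0.27 in the aldosterone lungs (difference -0.08 ± 0.35). CD247, the zeta subunit, differed by 0.39 ± 0.19, the surface receptor CD5 by 0.03 ± 0.31 and the kinase LCK by 0.19 ± 0.22 (adjusted p = 1.0 for all 4). CD4 and CD28, found on helper T cells, were not well above background in any lung. CD3E was lowest in control replicate 4 and the next lowest in aldosterone replicate 3, the 2 lungs in which the T-cell receptor alpha chain was lowest.

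Of 13 B-cell genes only CR2, the complement receptor of mature B cells, had a named probe. Its probe A_70_P039392 read -2.70 in control replicate 4 and -2.53 in aldosterone replicate 4, and at most -4.99 in the other 6 lungs, so the groups overlapped (difference 0.16 ± 0.89, adjusted p = 1.0) while the replicates numbered 4 stood apart from the rest. The mu coding probe was at its lowest in the first of these lungs and at its second highest in the other. Of 6 plasma cell genes XBP1 alone was measured, with a difference of 0.18 ± 0.23 (adjusted p = 1.0); many secretory cells express it too. No gene of receptor recombination and no pan-leukocyte gene of the lists had a named probe.

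Of 7 Fc receptor and antibody transport genes, 6 were measured, 5 with a higher and 1 with a lower mean. FCGRT, the neonatal Fc receptor, differed by 0.12 ± 0.13, FCER1G by 0.01 ± 0.30, FCGR1A by 0.08 ± 0.49 and FCER1A by -0.99 ± 0.49 (adjusted p = 1.0 for all 4). GNLY, a killer-cell granule protein, was the measured natural killer gene. Its brightest probe, A_70_P050991, differed by 1.62 ± 0.76 (adjusted p = 1.0). In that probe aldosterone replicate 1 read -0.84, while aldosterone replicate 3, at -5.12, lay below all controls. The other GNLY probes did not all read alike: A_70_P050992 differed by 1.80 ± 0.73 and A_70_P024302 by 0.08 ± 0.19. A_70_P024301 was well above background in aldosterone replicate 1 alone. The red cell markers AHSP, HBB and CA1 together ranged from 23.6 to 146 times the 75th percentile between lungs, and their part in the values of the members was not tested.

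The wording of the rule left 13 probes of receptor chains outside, named for example kappa light chain or uterine IEL TCR delta without the required words. They were listed after the values were known. Of these, 7 were well above background in at least 4 lungs, 3 had a higher and 4 a lower mean, and differences ran from -0.46 to 0.19. The kappa light chain A_70_P030262 read -3.50, -3.91, -4.13 and -4.73 in the controls and -4.05, -3.20, -4.78 and -4.39 in the aldosterone lungs (difference -0.04 ± 0.36, adjusted p = 1.0). As in the mu probes and light-chain clones 70 and 96, aldosterone replicate 2 was the highest lung for this probe. It was also highest for kappa probe A_70_P030261. Kappa probe A_70_P016711, seen in all 8 lungs, was highest in aldosterone replicate 4, at -4.69, with -4.82 in replicate 2. Kappa probes A_70_P016361 and A_70_P016362 were not well above background in any lung. The lambda segment was highest in aldosterone replicate 3, and gamma1 and clone 139 in aldosterone replicate 4. All 6 probes of T19, the sheep surface marker of gamma delta T cells, were above background in every lung and had lower means after aldosterone, by -0.53 to -0.14, with none past the threshold. The T19 probes belong to 1 gene family and are not independent of each other.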

How the data were processed

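Each lung's RNA (450 ng, Cy3) was hybridised to 1 array. The deposited scanner files hold spot intensity, made by the authors with Agilent Feature Extraction 10.1.1.1, per the file headers and the submitters' processing notes: background was subtracted, spatial trends were removed and values near background were replaced by surrogates, so values near the floor have no order. A series table that the authors deposited, with log2 values of median 0 per array, was used as an alternative. The flags for background, which the deposited files give as other values of 0 or 1, set detection.

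Here log2 intensity less the array's 75th percentile was taken over 15208 non-control spots; flagged outlier spots were left out (74 in all, 1 of a member, lambda-6b in aldosterone replicate 3). Spots were averaged to 15008 probes, of which 12168 were well above background in at least 4 lungs and were tested with limma 3.58.1 in R 4.3.3 (group as the only term, two-sided, Benjamini-Hochberg adjustment, threshold 0.05); the procedure was tested on simulated data. The number of arrays limits precision.

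Samples came from separate fetuses. Replicate numbers were taken to pair twins: after group means were removed, same-numbered lungs correlated at 0.446, 0.275, 0.28 and 0.538 over 12146 probes, and different-numbered ones between -0.449 and 0.204. All arrays shared 1 slide, and those of a number were neighbours on it, which cannot be told apart from twinning.

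The members and lists were chosen with earlier results of these data known. Values in every lung are given for the 5 brightest immunoglobulin and 5 brightest T-cell receptor members, the 4 with the smallest p, and further probes of the same sequence entry; of other lymphocyte genes, up to 4 of the brightest measured per list. List genes were named through RefSeq's table for ARS-UI_Ramb_v3.0, used for names alone, and CD3G from its description; of several probes the brightest was used. Alternatives were the replicate block, slide row, array weights, normexp with quantile normalization, median scaling, the authors' values, other filters, spots on their own and each lung left out.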

Additional observations from a re-analysis of the deposited data

Results flagged for a closer look

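For clone VR5, control replicate 2 stood apart from the other controls: it read -6.85, while the other 3 lay between -6.20 and -6.14. The gap made up 0.91 of the range of the group, above Dixon's critical value for 4 samples. Chance alone would single out about 1 group in 20, and 13 members in 2 groups were examined. This lung was not well above background for the probe. Without it the difference between groups was 1.08.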

How the results depend on the processing

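No member passed after adjustment under any alternative, and none of the array's probes did; the count stayed at 0 without the CD1b probe, an alternative added after seeing the data. Unadjusted p under 0.05 was found for 0 to 4 members and 143 to 932 of all probes. With the replicate block the counts past the threshold were 0 and 0, and 16 of 24 members were higher as before. The block changed no adjusted call. The count of members with a higher mean moved from 16 to 10 within slide row 1, and to 80 of 113 without a filter, where many values lie at the surrogate floor, which is higher on the array of aldosterone replicate 4. Leaving out 1 lung gave 13 to 18 higher and medians of 0.01 to 0.22; within row 1 the median was -0.09. Under the looser detection flag (positive and significant), the members counted were 63, 64, 53 and 65 in control replicates 1 to 4 and 46, 69, 62 and 46 in aldosterone replicates 1 to 4. Of 13 members named by rule, 4 never changed sign: VR5 (0.21 to 1.97), 106105 (0.10 to 0.88), mu A_70_P024391 (0.30 to 0.85) and delta A_70_P056806 (-0.61 to -0.06). These are the 4 members with the smallest unadjusted p in the same arrays. Their steady sign is therefore no separate result.

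The other 9 changed sign somewhere. Within row 1 the lambda constant segment was -0.25, VR15 -0.03, the alpha chain -0.14, delta A_70_P056821 -0.20 and delta A_70_P056836 -0.16. With array weights the alpha chain was -0.09, gamma A_70_P006881 0.09, delta A_70_P016437 0.01 and A_70_P056836 -0.45. Normexp gave VR15 -0.03 and A_70_P056836 -0.02, median scaling gave A_70_P056836 -0.01, and the authors' values gave VR15 -0.02 and A_70_P056836 -0.03. With 1 lung left out, sign changes ranged as follows: VR15 -0.04 to 0.20, gamma1 -0.04 to 0.35, alpha -0.11 to 0.38, gamma A_70_P006881 -0.12 to 0.08, mu A_70_P002936 -0.17 to 0.96, A_70_P016437 -0.17 to 0.02, A_70_P056821 -0.13 to 0.35, A_70_P056836 -0.20 to 0.32 and the lambda segment -0.04 to 0.23. The cause was not tested. Of the 113 members 57 were not well above background in any lung, which limits what these arrays can show of them.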

Other observations

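The precision gained with the replicate block was less general in these probes than over the array, a difference that was not tested. The replicate number marks slide neighbours as well as twins, and these cannot be told apart. The members were also mostly near background, unlike most probes of the array. With the replicate number as a block, the standard error was smaller for 19 of the 24 members tested (79.2%) and for 93.6% of all probes. Among members seen in exactly 1 lung with at least 1 other lung off the floor, the next highest lung was the twin for 3 of 21, against 154 of 581 for all such probes. The largest gain was in beta chain OTCR9, whose standard error was 0.57 without and 0.24 with the block.

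Probes of the same sequence entry did not always read alike. The OTCR23 probe A_70_P056776 lay between -6.26 and -5.31 in the 8 lungs, while A_70_P016826, from the same entry and holding AATAAA, was not well above background in any.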
